A study of Homo sapiens with 9 samples.

Results

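Thawed LAN-1 neuroblastoma cells that went through a second density gradient separation before magnetic enrichment were compared with thawed cells that were enriched directly. The comparison took the 3 arrays whose deposited labels name a gradient (Lymphoprep) step after thawing and the 3 whose labels name none, 6 of the 9 arrays in all, each with 1 replicate number from 1 to 3. Thawed cells with gradient were LAN-1 cells spiked into tumor-free bone marrow, separated to mononuclear cells, frozen in 20% DMSO at -80°C, thawed, layered on Lymphoprep again and then enriched on magnetic beads through the surface ganglioside GD2. Thawed cells without gradient had the same handling apart from the second Lymphoprep step. The other 3 arrays held fresh cells, separated once and enriched without freezing, and entered the fit only to share its estimate of the spread. All groups came from 1 established neuroblastoma cell line, so they model neither the variety of patient tumors nor cells that had lived in marrow. Each sample was hybridized to 1 PrimeView array from 100 ng of total RNA, and signals are log2 values computed by RMA, on which a difference of 1 is a doubling or halving. Arrays are named by their deposited labels. Against the fresh arrays, which both thawed conditions share as their baseline, 16 genes with gradient (0.0882% of 18132) and 448 without gradient (2.47%) passed the criterion given below. The order of these counts is opposite to the one in the study's text, where the second gradient goes with more altered genes. In size, each count lies near the one that the study gives for the other thawed condition, over a somewhat different set of genes. Whether the labels of both thawed conditions were exchanged cannot be settled from the values. If they were, every sign given here would turn.

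A density gradient parts mononuclear cells, which stay at the interface, from red cells, granulocytes and dead cells, which sink. Tumor cells in marrow aspirates are often stored frozen as mononuclear cells, and a second gradient after thawing is one way to clear cells that did not survive. The array's labelling starts at the poly(A) tail with an oligo(dT) primer and copies the transcript toward its 5' end, so a probe set close to the 3' end needs only a short copy and one far from it a long copy. Control probe sets against separate segments of GAPDH, a glycolytic enzyme, and ACTB, a cytoskeletal actin, read how far the copies reach, as do those against dap, lys, phe and thr, bacterial transcripts mixed into the RNA before labelling.

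Among the line's own markers, MYCN at its brightest probe set and PHOX2A were at high signal in every array of both thawed conditions. HAND2 and TH lay lower at their most variable probe sets, at 4.83 to 7.58 and at 5.60 to 8.51. MYCN, a transcription factor gene amplified in many high-risk neuroblastomas, lay at its probe set of highest mean at 13.48, 13.66 and 13.49 with gradient and at 13.15, 13.45 and 13.36 without gradient. PHOX2A, a transcription factor of noradrenergic neurons, lay at 9.34, 9.86 and 9.86 with gradient and at 10.61, 10.44 and 10.19 without gradient. PTPRC, the pan-leukocyte surface marker CD45, lay under 5 on the log2 scale for every probe set with 1 gene symbol, and the B cell marker MS4A1 did too. Other blood cell transcripts were high in some arrays, as given below: LYZ reached 10.89 with gradient and 9.25 without gradient, S100A8 9.91 and 8.01. Replicate 1 with gradient stood apart. Over the highest-variance probe set per gene, its median correlation with the other arrays was 0.868, against 0.941 to 0.985 for the other 8. Results are therefore also given without it.

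The 5' control segments were low relative to the 3' segments in the arrays with gradient. The signal of the 5' segment of GAPDH was 6.61, 10.61 and 11.62 with gradient (replicates 1 to 3) and 12.67, 12.31 and 12.90 without gradient. Its 3' segment lay at 13.34, 13.51 and 13.69 with gradient and at 13.76, 13.77 and 13.85 without gradient. The groups did not overlap at either end, and the gap between them was much wider at the 5' end. The 3' minus 5' difference of GAPDH averaged 3.90 ± 2.49 with gradient and 1.16 ± 0.26 without gradient (SD, n = 3 each), 2.74 apart (two-sided p = 0.1 by exact permutation, which with 3 arrays a side cannot go lower). Without replicate 1 with gradient the difference was 1.33. Fresh arrays averaged 3.35 ± 1.69 (SD, n = 3).

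ACTB gave the same order, with a 3' minus 5' difference of 5.29, 4.86 and 4.24 in the arrays with gradient and of 3.58, 4.11 and 3.33 in those without gradient (exact permutation test, two-sided, p = 0.1). For the bacterial RNAs, which no LAN-1 cell makes, the 3' minus 5' difference averaged over all 4 was 5.17, 3.14 and 2.16 with gradient and 1.73, 1.99 and 1.73 without gradient (exact permutation test, two-sided, p = 0.1). For this mean too the groups did not overlap, although replicate 3 with gradient came close to the arrays without gradient. Taken singly, dap, lys and phe did not overlap. The groups did overlap for thr, at 4.868, 4.141 and 3.151 with gradient and 3.085 to 3.352 without gradient (exact permutation test, p = 0.3). The mean 5' segment overlapped as well, at 4.268, 6.38 and 7.388 with gradient and 6.863 to 7.406 without gradient (exact permutation test, p = 0.3). The 3' segments of these RNAs averaged 9.50 ± 0.06 with gradient and 8.94 ± 0.17 without gradient, higher with gradient in every array (SD, n = 3 each). Hybridization controls, which are added already labelled, had 3' minus 5' differences of 0.26 ± 0.005 with gradient and 0.32 ± 0.02 without gradient (SD, n = 3 each). Their mean signal was 12.28, 12.10 and 11.74 with gradient and 11.34, 11.25 and 11.31 without gradient, again without overlap. The part of labelling in the gene differences below was not tested beyond the fits that carry it as a term, and in this design it moves with the gradient step.

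**Figure D1:**
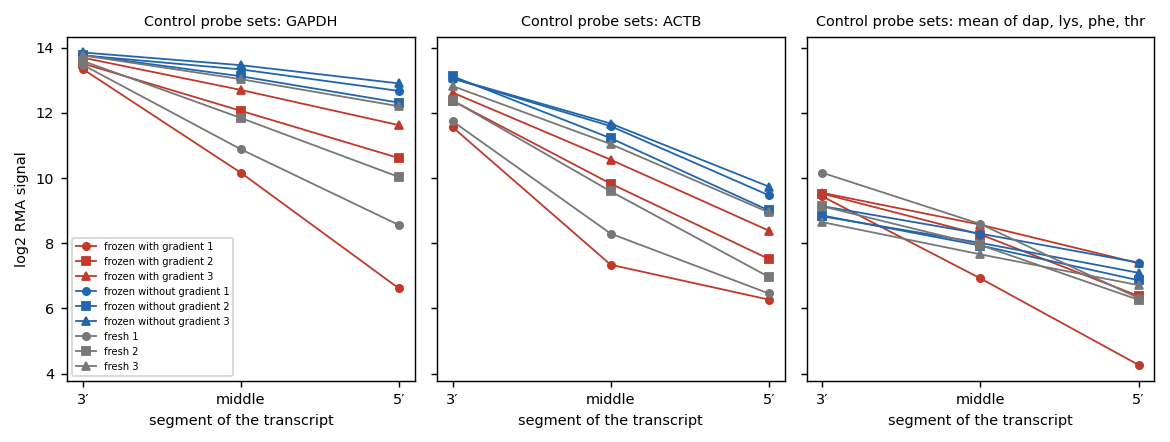
Log2 RMA signal of the 3', middle and 5' control segments of GAPDH, ACTB and the mean of 4 bacterial RNAs, with 1 line per array (red, with gradient; blue, without gradient; grey, fresh; marker shape, replicate number). At the 5' end of GAPDH the arrays with gradient lie at 6.61, 10.61 and 11.62, below all arrays without gradient at 12.31 to 12.90.

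Nearly all genes past the criterion had a lower signal in cells with gradient. With the most variable probe set taken for each of 18132 genes, 769 genes (4.24%) were lower and 19 (0.105%) were higher with gradient, 788 (4.35%) in all. The criterion takes the study's thresholds, a log2 fold change beyond 1 in size and a p under 0.05, here with p before adjustment; the study's methods also name Benjamini-Hochberg adjustment and do not say which p the threshold was set on. On all 49293 probe sets that are no controls, 1307 (2.65%) were lower and 44 (0.0893%) higher. No gene passed a Benjamini-Hochberg adjusted p under 0.05 in limma, where 3654 genes had an unadjusted p under 0.05 and the lowest adjusted p was 0.244; limma with array weights, which lets the arrays count unequally, put 5281 genes past an adjusted p under 0.05 and 579 past the criterion. Over all genes the median log2 fold change was 0.15, and 0.04 after cyclic loess, so the lower genes stood against a slight shift of the rest to higher signals. The values of both conditions did not overlap for 35.6% of all genes, 19.9% higher and 15.7% lower with gradient, and for 30.4% of all probe sets.

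The count rested on a few arrays and on the probe set taken. Without replicate 1 with gradient 196 genes passed, and without replicate 3 with gradient 2039. Among the arrays without gradient, leaving out replicate 1 gave 433 and leaving out replicate 3 gave 463. With the replicate number as a block in the fit, 1298 genes passed, 30 higher and 1268 lower. Taking the probe set with the highest mean left 201 genes, and a fit with the GAPDH 3' minus 5' measure as a covariate left 87, of which 33 were higher and 54 lower with gradient. The count of higher genes also moved with scaling and weighting: 54 were higher beside 560 lower after quantile normalization, and 43 beside 536 with array weights.

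Read within each replicate number, the differences shared their direction but not their size. In replicate 1, 5794 of 49293 probe sets (11.8%) were lower by over 1 with gradient and 2129 (4.32%) were higher by over 1. Replicate 2 had 1002 lower (2.03%) and 86 higher (0.174%), and replicate 3 had 354 lower (0.718%) and 22 higher (0.0446%). The difference of the GAPDH 3' minus 5' measure between the conditions ran in the same order, at 5.64, 1.45 and 1.13, as did that of the bacterial RNAs, at 3.44, 1.15 and 0.42.

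Probe sets lower by over 1 in one replicate were mostly lower in the others, which share no array with it. Of the 354 probe sets lower by over 1 in replicate 3, 99.4% were lower in replicate 1 and 98.9% in replicate 2, against 37.1% and 41.4% of all probe sets. Beyond 1 in the same direction were 85.9% of them in replicate 1 and 54% in replicate 2. Of the 1002 probe sets lower by over 1 in replicate 2, 95.7% were lower in replicate 3, against 43.3% of all probe sets, and 19.1% were lower by over 1 there. Of the 5794 of replicate 1, 15.2% were lower by over 1 in replicate 2 and 5.25% in replicate 3. Over all probe sets, which are not independent and share the labelling of each array, the differences correlated with a Pearson r of 0.729 between replicates 1 and 2, 0.595 between 1 and 3, and 0.602 between 2 and 3. In all 3 replicates, 182 probe sets of 125 genes were lower by over 1 and 6 were higher by over 1.

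**Figure D2:**
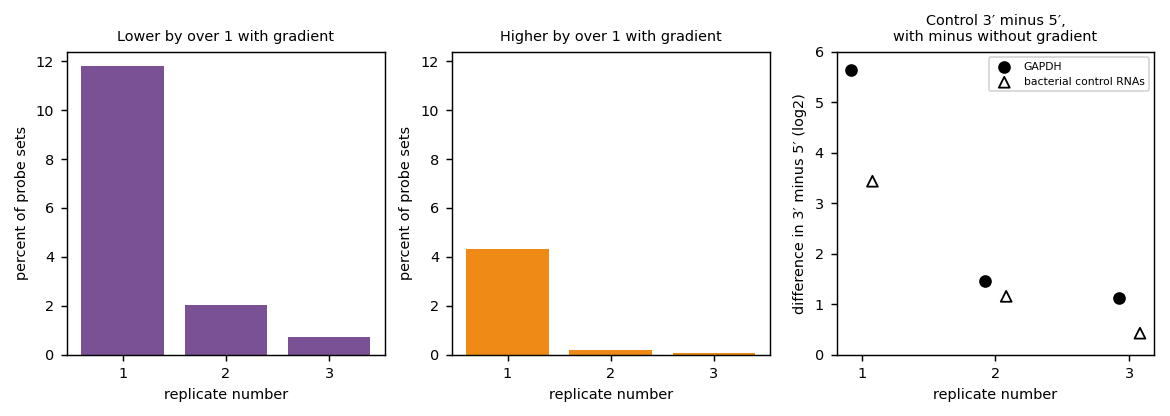
Percent of 49293 probe sets lower (left) or higher (middle) by over 1 with gradient, and the difference between the conditions in the control 3' minus 5' measure on the log2 scale (right; filled circles, GAPDH; open triangles, bacterial RNAs), for replicate numbers 1 to 3. The share of lower probe sets was 11.8%, 2.03% and 0.718%, and the GAPDH difference 5.64, 1.45 and 1.13.

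In several of the genes with the largest decreases the probe sets of the gene differed widely. EEF2, the elongation factor that moves the ribosome along the mRNA, had a signal of 6.71, 9.32 and 10.35 with gradient and of 12.21, 11.62 and 11.77 without gradient. Each array with gradient lay below each array without gradient, and replicate 1 lay farthest down. EEF2 fell by 3.07 (log2; standard error 0.98, adjusted p = 0.244 in limma). Its 8 probe sets spread over log2 fold changes of -3.07 to -0.17, and 5 of them passed the criterion.

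HSPA8, the constitutive 70-kDa chaperone, showed the widest spread. The probe set taken had 4.36, 9.08 and 10.10 with gradient and 11.13, 10.78 and 11.54 without gradient, so it fell by 3.30 (standard error 1.42, adjusted p = 0.246 in limma). Of its 9 probe sets 4 passed the criterion and 5 did not, and the highest log2 fold change among the 9 was 0.23. The call of HSPA8 was lost without any 1 of 5 arrays, among them replicate 1 with gradient (log2 fold change -1.56).

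MYCN was split in the same way. The probe set taken had 6.38, 9.87 and 10.41 with gradient and 11.40, 11.37 and 11.67 without gradient, so it fell by 2.59 (standard error 1.04, adjusted p = 0.244 in limma). Its other 3 probe sets, among them the one at 13.15 to 13.66 given above, had log2 fold changes of -0.06, -0.03 and 0.22 and did not pass. So the direction of MYCN depends on the probe set: it turns with the one of highest mean. Without replicate 1 with gradient the first probe set had a log2 fold change of -1.34 and no longer passed, and it was also lost without any 1 array of the cells without gradient.

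Among the other large decreases, EEF1G, a subunit of elongation factor 1, fell by 2.95 at 1 of its 3 probe sets. PTGES3, the p23 cochaperone of HSP90, fell by 2.78, with log2 fold changes of -2.78 to -0.01 over 4 probe sets. ATP6V1A, the catalytic subunit of the vacuolar proton pump, fell by 2.55 and had 4 of 5 probe sets past the criterion, while the fifth, the brightest on average, was at 0.40. SERPINF1, a secreted serpin, fell by 2.49 and had 3 of 5 probe sets past it. TUBB, a beta-tubulin, fell by 2.66, with all 6 probe sets lower and 5 past the criterion. The calls of EEF1G and TUBB were lost without replicate 1 of either condition, that of TUBB also if replicate 3 without gradient was dropped, and that of ATP6V1A if replicate 1 or 3 without gradient was dropped, while their log2 fold changes stayed between -3.79 and -1.39 in every fit that left out 1 array.

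A smaller set of genes was lower across its probe sets. Of the 769 lower genes, 707 had more than 1 probe set. In 344 of these (48.7%) every probe set had a negative log2 fold change, in 188 at least 2 passed the criterion, and in 21 (2.97%) all of them did. In 363 of the 707 genes at least 1 probe set had the opposite sign. The 707 genes were chosen for 1 lower probe set, and the matching shares over all genes with more than 1 probe set were not taken. Several of the 21, among them PGD and AARS1, had only 2 probe sets. The gap between the highest and the lowest log2 fold change of a gene had a median of 1.35 in the 707 genes, which were taken for their most variable probe set, and of 0.41 over all 11734 genes with more than 1 probe set.

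P4HB, protein disulfide isomerase of the endoplasmic reticulum, was lower at all of its 6 probe sets, with log2 fold changes of -2.77 to -1.29 and 5 past the criterion. The probe set taken had 3.88, 5.61 and 6.95 with gradient and 8.12, 8.15 and 8.48 without gradient (standard error 0.88, adjusted p = 0.244 in limma). The conditions were apart in every replicate. RPL8, a protein of the large ribosomal subunit, had all 3 probe sets past the criterion (-2.17 to -1.34), with signals of 9.47, 11.57 and 12.40 with gradient and of 13.42, 13.19 and 13.34 without gradient for the one taken. ACTB had all 3 past it too (-2.70 to -1.61), and its signals were 6.31, 9.66 and 10.50 with gradient and 11.63, 11.22 and 11.72 without gradient. PGD, an enzyme of the pentose phosphate pathway, had both of its probe sets past it (-2.05 and -1.58).

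CDC25B, a phosphatase that activates cyclin-dependent kinases, and PRDX2, a peroxidase, had 5 of 5 probe sets past the criterion, at -1.79 to -1.09 for CDC25B and -1.87 to -1.18 for PRDX2. CDC25B had a signal of 3.79, 5.18 and 5.59 with gradient and of 6.64, 6.49 and 6.80 without gradient, and kept its call in each of 9 fits that left out 1 array. PRDX2 lost it in 3 of these fits. The other genes with every probe set past the criterion were AARS1, TRMT112, GSS, MAD1L1, KLF13, AKAP8L, ATP6AP1, PCBP3, SLC39A7, PEX6, FSCN1, HERC1, C19orf48P, ENO1, WDR76 and EEF1A2. By the median over their probe sets, the next largest decreases among genes lower at every probe set were those of NAP1L4, a histone chaperone (-1.92, 4 of 5 past), EIF4G1, the scaffold of the cap-binding complex (-1.84, 2 of 3 past), RUNX1T1, a transcriptional corepressor (-1.68, 2 of 5 past), AHCYL1, RPN1, a subunit of the enzyme that attaches N-glycans, and SARAF. For EIF4G1 the probe set taken was not among those past the criterion (log2 fold change -1.92, adjusted p = 0.29 in limma), and it passed with the replicate number as a block. Nor was that of RUNX1T1 (log2 fold change -1.68, adjusted p = 0.26 in limma), which had 3.69, 7.53 and 6.88 with gradient and 8.10, 8.02 and 7.01 without gradient, with an overlap and a wide gap in replicate 1 alone.

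Without replicate 1 with gradient, ACTB (-1.44), NAP1L4 (-1.18), RPN1 (-0.95), PRDX2 (-1.17) and ENO1 (-0.62) no longer passed. P4HB (-1.97), RPL8 (-1.33), PGD (-1.57) and AARS1 (-1.04) still passed in that fit, as did EEF2 (-2.03), PTGES3 (-1.80), ATP6V1A (-1.39) and SERPINF1 (-1.58). ACTB, NAP1L4 and RPN1 were also lost without any 1 array of the cells without gradient, and PRDX2 and ENO1 without replicate 1 or 3 of these, and NAP1L4 without fresh replicate 2.

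**Figure D3:**
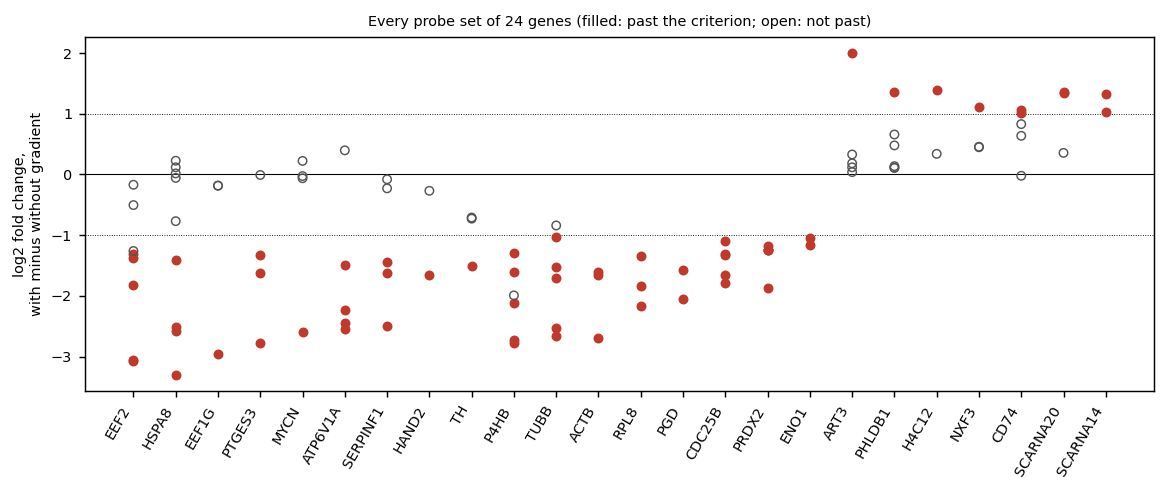
Log2 fold change, with minus without gradient, of every probe set of 24 genes, filled where the probe set passed the criterion and open where it did not, with dotted lines at -1 and 1. The probe sets of MYCN run from -2.59 to 0.22 and those of HSPA8 from -3.30 to 0.23, while all 5 probe sets of CDC25B lie between -1.79 and -1.09.

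Genes of glycolysis (33.3%), translation (31.4%) and splicing (28.6%) held the largest shares of lower genes among 31 gene lists, beside 4.24% of all genes, when the most variable probe set was read. With the probe set of highest mean 3 of 18, 2 of 35 and 4 of 49 genes of these lists were lower, beside 186 of all genes. Of 35 translation factors 11 fell and none rose, with a median log2 fold change of -1.20, beside 0.15 over all genes. EIF3L, a subunit of initiation factor 3, had 6.12, 7.08 and 7.94 with gradient and 9.89, 8.63 and 9.36 without gradient, so it fell by 2.25 (standard error 0.70, adjusted p = 0.244 in limma). EIF5A, which helps the ribosome through difficult peptide bonds, fell by 1.24. The median difference over the list was -2.03, -0.67 and -0.42 in replicates 1, 2 and 3. Of the 137 probe sets of these genes 23 passed lower, with a median of -0.46.

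Of 49 splicing factors and nuclear ribonucleoproteins 14 fell, with a median of -1.08. SNRPB, a core protein of spliceosomal particles, had 9.25, 10.88 and 11.21 with gradient and 12.62, 12.28 and 12.56 without gradient, so it fell by 2.04, and it passed in each of 9 fits that left out 1 array. SNRNP200, a spliceosomal helicase, fell by 1.45, and like EIF5A it had -0.92 and no longer passed without replicate 1 with gradient. Without replicate 1 with gradient 4 translation factors and 1 splicing factor passed, and in the fit that carried the GAPDH measure no translation factor passed and 1 splicing factor passed as higher. Leaving out 1 array at a time gave 4 to 23 translation factors and 1 to 30 splicing factors.

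Some genes of glycolysis, cholesterol synthesis and protein folding also fell. Of 18 glycolytic enzymes 6 fell (median -0.91, or -0.51 over their 54 probe sets), and 2 to 11 passed when 1 array was left out. PFKP, a phosphofructokinase, had 8.68, 8.64 and 8.68 with gradient and 10.12, 9.51 and 9.46 without gradient, a tight group against a looser one, and fell by 1.03 (standard error 0.19, adjusted p = 0.244 in limma). ENO2, the neuronal enolase, fell by 1.61 and HK1, a hexokinase, by 1.26, and both passed in each of 9 fits that left out 1 array, while PFKP was lost (-0.81) without replicate 1 of the cells without gradient. GAPDH itself has 1 probe set with a gene symbol, at 12.56, 13.24 and 13.49 with gradient and 13.72, 13.65 and 13.82 without gradient (log2 fold change -0.63, not past the criterion). Of 24 chaperones 5 fell (20.8%, median -0.78), beside 4.24% of all genes and 6.29% of those at a mean signal of 8 to 10. The count was 2 when the brightest probe set was taken and 1 to 12 when 1 array was left out. Among the lower chaperones was HSPA9, the mitochondrial 70-kDa chaperone, at 1 of its 5 probe sets (-1.97), the others lying between -0.49 and 0.27. Of 17 genes of cholesterol synthesis 4 fell (23.5%, median -0.50), beside 8.41% of genes at a mean signal of 6 to 8. None fell with the probe set of highest mean. MSMO1, a sterol oxidase of that pathway, had 4.42, 5.28 and 4.94 with gradient and 7.35, 6.55 and 6.07 without gradient, but its brightest probe set was at 0.13.

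Single genes of replication and of the neurite cytoskeleton fell too. Of 25 genes of DNA replication 5 fell (20%, median -0.77), led by MCM2 (-2.17) and MCM7, subunits of the replicative helicase. Over all genes 4.24% fell, and 6.29% of those at a mean signal of 8 to 10, where the median levels of both lists lay. Of the replication genes 1 passed without replicate 1 with gradient and none with the probe set of highest mean. Of 22 genes of the neurite cytoskeleton 5 fell (22.7%, median -0.88, or -0.32 over their 78 probe sets), 1 when the brightest probe set was taken and 2 to 11 when 1 array was left out. CRMP1, which guides growth cones, had 6.09, 6.43 and 6.73 with gradient and 8.69, 8.01 and 8.38 without gradient, with a wide gap between the conditions, and it fell by 1.94 (standard error 0.39, adjusted p = 0.244 in limma). It passed in each of 9 fits that left out 1 array. STMN1, a microtubule destabilizer, fell by 2.47 at the probe set taken, while that of highest mean had 0.09.

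Markers of the neuroblastoma and its noradrenergic program moved at single probe sets. Of 19 neuroblastoma identity genes 2 fell (10.5%), MYCN and HAND2, with a median of -0.56 over the genes and of 0.02 over their 59 probe sets. Over all genes 4.24% fell, and 8.41% of those at a mean signal of 6 to 8, so this share was near the latter. HAND2, a transcription factor of sympathetic neurons, had 4.83, 6.10 and 6.33 with gradient and 7.58, 7.37 and 7.28 without gradient at the probe set taken, so it fell by 1.66 (standard error 0.46, adjusted p = 0.244 in limma), and it had -0.27 at its other one. With the replicate number as a block 5 of the 19 genes passed, and without replicate 1 with gradient 1 did. Of 12 genes of catecholamine synthesis and transport TH, the rate-limiting enzyme, fell (8.33%) and the other 11 did not pass. The signals of TH were 5.60, 6.43 and 6.498 with gradient and 8.51, 7.49 and 7.02 without gradient, so it fell by 1.499, and its other 2 probe sets had -0.73 and -0.71. The genes of this list had a median of -0.06, and 14 synaptic vesicle genes, none past the criterion, one of -0.19.

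**Figure D4:**
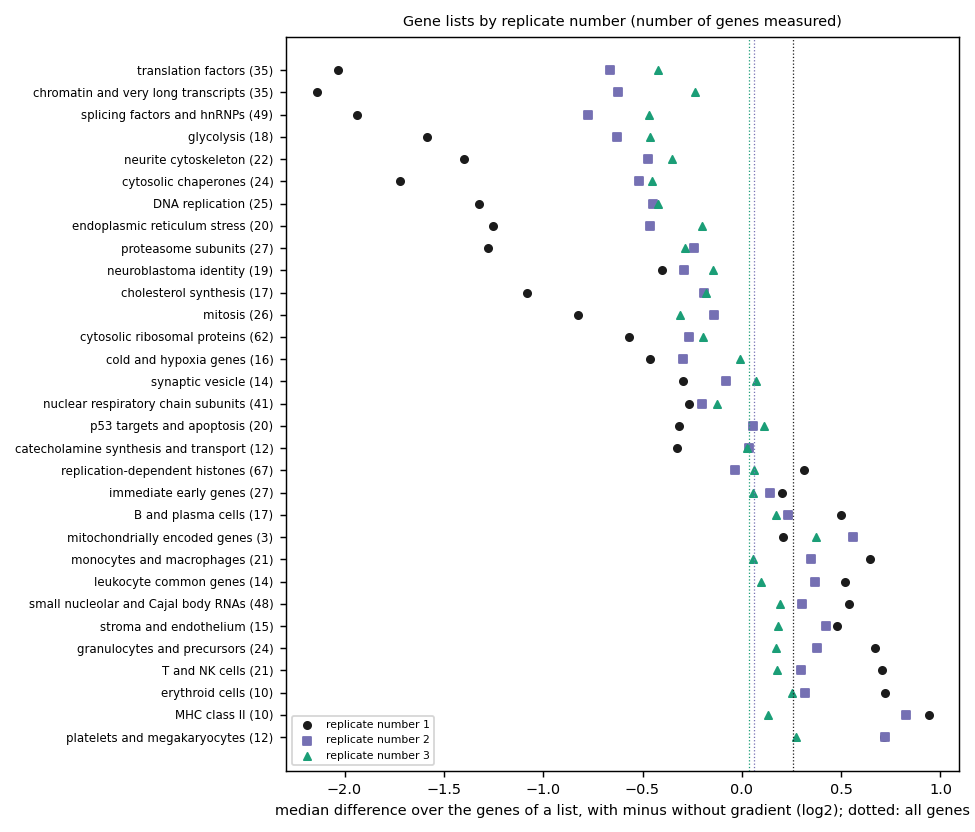
Median difference, with minus without gradient on the log2 scale, over the genes of each of 31 lists, 1 marker per replicate number, with dotted lines at the median of all genes in that replicate. Translation factors lie at -2.03, -0.67 and -0.42, while lists of blood and marrow cells lie to the right of zero.

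The few higher genes included some annotated as small RNAs that guide RNA modification. Whether their signal came from the small RNA itself or from a longer transcript that holds its sequence was not tested. SCARNA20, a Cajal body RNA, had 8.99, 9.15 and 8.98 with gradient and 7.004, 8.001 and 8.05 without gradient, an increase of 1.36 (standard error 0.27, adjusted p = 0.244 in limma). SCARNA14 had 5.58, 6.48 and 6.18 with gradient and 4.15, 4.70 and 5.41 without gradient, an increase of 1.33. Both were apart in every array, had 2 probe sets past the criterion (of 3 for SCARNA20 and of 2 for SCARNA14) and kept their call in each of 9 fits that left out 1 array. SNORA26, a nucleolar RNA with 1 probe set, had 6.93, 7.57 and 7.45 with gradient and 5.39, 6.52 and 6.28 without gradient, an increase of 1.25, or 0.92 without replicate 1 of the arrays without gradient, where it no longer passed. Of 48 such small RNAs 3 rose and 1 fell (SNORD17, by 1.05), beside 0.105% and 4.24% of all genes. Higher without overlap were 17 of them, beside 19.9% of all genes. Their median was 0.33.

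The protein-coding genes with the largest increases mostly rose at 1 of several probe sets. ART3, of the ADP-ribosyltransferase family, had 8.86, 7.04 and 6.23 with gradient and 5.58, 5.45 and 5.09 without gradient, an increase of 2.002 (standard error 0.60, adjusted p = 0.244 in limma) at 1 of 5 probe sets, the others lying between 0.04 and 0.33. H4C12, a histone H4 gene, rose by 1.40 and PHLDB1 by 1.36, each at 1 probe set, and NXF3, of the nuclear export factor family, by 1.11. H4C12 (0.87), PHLDB1 (0.83) and NXF3 (0.93) did not pass without replicate 1 with gradient, nor did PHLDB1 (1.26) without replicate 3 of the cells without gradient. GNG11, a G protein subunit, and MRPL20, of the mitochondrial ribosome, rose by 1.14 and 1.08.

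Genes of marrow and blood cells leaned to higher signals with gradient, mostly below the criterion. MHC class II genes, which present antigen on B cells and monocytes, had 2 of 10 higher, HLA-DPA1 and CD74, and a median of 0.52. Over all genes 0.105% were higher. HLA-DPA1 had 7.41, 7.72 and 6.38 with gradient and 6.10, 6.22 and 5.78 without gradient, an increase of 1.14 that was 0.86 and not past the criterion without replicate 2 with gradient. CD74, the class II invariant chain, rose by 1.06 with an overlap between the conditions, and lost its call in 4 of 9 fits that left out 1 array. HLA-DRA had 7.26, 8.58 and 5.66 with gradient and 5.61, 6.55 and 4.81 without gradient (log2 fold change 1.51, adjusted p = 0.249 in limma), with an overlap, and passed with the replicate number as a block.

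No gene passed among 24 of granulocytes (median 0.41), 10 of erythroid cells (0.44), 17 of B and plasma cells (0.29), 21 of T and NK cells (0.42), 12 of platelets (0.59) and 15 of stroma and endothelium (0.38). Of 21 monocyte genes VCAN, a matrix proteoglycan that many cell types make, fell by 1.58 and 20 did not pass (median 0.32), and of 14 common leukocyte genes CORO1A, an actin-binding protein also found in neurons, fell and 13 did not pass (median 0.33). Without replicate 1 with gradient 0 genes of either list passed. Mean signals of these lists were low and close. The granulocyte list averaged 4.23 to 4.81 over the arrays with gradient and 3.96 to 4.18 over those without gradient, the erythroid list 5.65 to 5.70 with gradient and 4.92 to 5.40 without gradient, and the platelet list 5.28 to 5.75 with gradient and 4.61 to 5.15 without gradient. Over all genes the median log2 fold change was 0.29 where the mean signal was 4 to 5, and 0.21 where it was 5 to 6.

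In contrast with the list medians, single abundant blood transcripts were higher by over 1 in every replicate. They were chosen after their values were seen, as the named genes among the 6 probe sets higher by over 1 in all 3 replicates, beside ART3 and SNORA26. S100A8, a calcium-binding protein of granulocytes and monocytes, had 8.57, 9.91 and 7.20 with gradient and 6.43, 8.01 and 5.56 without gradient. PPBP, a platelet chemokine, had 6.19, 8.28 and 7.31 with gradient and 4.81, 6.90 and 5.02 without gradient. LYZ, lysozyme, had 6.94, 10.89 and 7.68 with gradient and 5.84, 9.25 and 5.34 without gradient.

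For all of them the conditions overlapped, and the replicates differed more from each other than the conditions did, yet within each replicate number the array with gradient was the higher one. Their log2 fold changes did not pass the criterion in the fit without pairing, at 1.89 (standard error 0.93, adjusted p = 0.255 in limma) for S100A8, 1.69 (standard error 0.76, adjusted p = 0.249 in limma) for PPBP and 1.70 (standard error 1.26, adjusted p = 0.363 in limma) for LYZ. With the replicate number as a block all of them passed it, but they were chosen for these same differences within numbers. That pass is therefore no separate support. LYZ has a second probe set, at a log2 fold change of -0.04 and signals of 3.64 to 5.18. HBB, the beta chain of hemoglobin, had 9.33, 9.97 and 10.10 with gradient and 5.59, 9.33 and 8.83 without gradient (log2 fold change 1.88, adjusted p = 0.253 in limma) and likewise passed with the block but not without it. Its conditions did not overlap, though replicate 1 with gradient and replicate 2 without gradient were level at 9.33, and replicate 1 without gradient was far below the others. With replicate 2 of the cells without gradient left out, S100A8, PPBP, LYZ, HBB and HLA-DRA passed in the fit without pairing too. PPBP also passed without replicate 1 with gradient, and S100A8 and HLA-DRA without replicate 3 with gradient. Of the 9 fits that left out 1 array, LYZ and HBB did not pass in 8, HLA-DRA in 7, and S100A8 and PPBP in 6. For S100A8, PPBP and LYZ these passes draw on the values they were chosen for and are no separate support either. Why these transcripts were higher was not tested. In this bulk RNA, more marrow cells, more RNA per marrow cell and labelling, which moves with the gradient step, cannot be told apart.

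**Figure D5:**
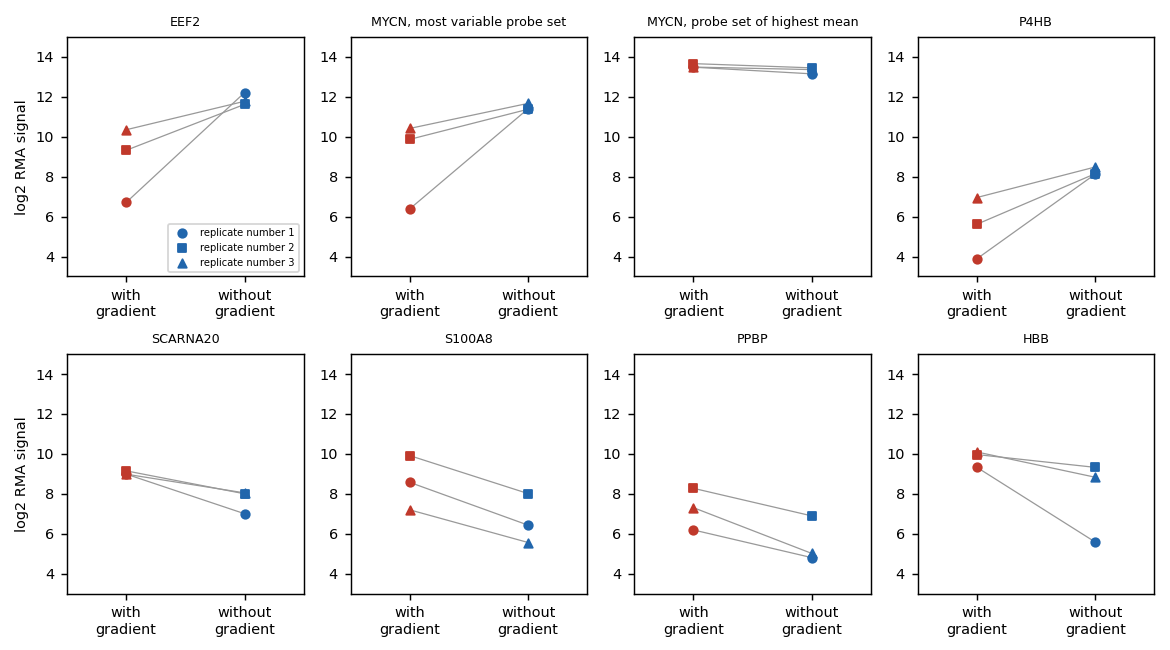
Log2 RMA signal of 7 genes in the 3 arrays with gradient (left, red) and the 3 without gradient (right, blue), lines joining arrays of the same replicate number; MYCN is shown at 2 probe sets. S100A8, PPBP and HBB are higher with gradient along every line, while EEF2 and P4HB are lower along every line, most in replicate 1.

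The differences also followed signal level and the kind of probe set. Of 3607 genes with a mean signal under 4, 3 were lower (0.0832%) and the median log2 fold change was 0.22. The share of lower genes was 0.978% at 4 to 5, 4.84% at 5 to 6, 8.41% at 6 to 8, 6.29% at 8 to 10, 4.44% at 10 to 12 and 4.9% at 12 and over, with a median of -0.19 at 6 to 8 and of -0.25 at 8 to 10. Probe sets are named by what their probes match. Those with no letter, which match 1 transcript, were lower in 0.816% of 11889, those that match several transcripts of 1 gene (letter a) in 3.36% of 23032, those shared between genes (letter s) in 2.26% of 6462 and those with probes that may bind other sequences (letter x) in 3.67% of 7910, beside 2.65% of all probe sets. These kinds also differed in median signal, at 4.7 for no letter, 5.335 for a, 7.113 for s and 5.959 for x. The kind of probe set was therefore not separated from signal level. Several of the named decreases, among them EEF2, EEF1G, PTGES3, TUBB, ACTB and RPL8, were read on x probe sets, where related sequences may add to the signal.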

How the data were processed

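RNA of LAN-1 cells recovered from bone marrow was measured on 9 arrays. The authors processed the array scans with RMA (background correction, quantile normalization between arrays, summary per probe set) and deposited log2 signals, which were used as they are; version numbers are not given in the sources used here. The number of arrays, 3 per condition, limits the precision. Of 49395 probe sets, 102 controls were left out of all tests, and 1832 with several gene symbols and 2473 with none were left out at the gene level, where each gene was represented by its probe set of largest variance across all 9 arrays, as in the study's methods. Symbols came from the platform annotation, 99.9% of gene IDs matched the RefSeq gene table and 0 symbols changed.

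Means of the 3 conditions were fitted over 9 arrays with limma 3.58.1 in R 4.3.3, p-values were adjusted by Benjamini-Hochberg over all genes or all probe sets, and the 3' minus 5' differences were compared by exact permutation. The study's methods call the 3 samples of a condition biological replicates. The labels do not say what was separate between them, so p-values measure the spread between these samples of 1 cell line. Samples with the same number deviated together between the thawed conditions (correlations of deviations from the condition means 0.377, 0.18 and 0.456), so a fit with the number as a block is given where it changes a call. The gene lists and members were chosen with earlier results of these data known. Named genes were the 10 largest changes per direction without overlap, the 10 largest medians over probe sets of 1 sign, the 4 list members of smallest p, and EEF2, MYCN, HSPA8, TH, HAND2, SCARNA20, SNORA26, GAPDH and ACTB. The procedure was tested on simulated arrays. Alternatives covered the probe set, normalization, low-signal filters, spread, array weights, pairing, labelling covariates and arrays left out. A description by transcript length was not made, because the gene table used gives genomic spans.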

Additional observations from a re-analysis of the deposited data

How the results depend on the processing

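Cyclic loess, quantile normalization, median centring, both low-signal filters, robust estimation with an intensity trend, array weights, the 6 thawed arrays alone and those 6 with the block kept the counts of genes and of probe sets past the criterion within 1.5 times of 788 and 1351. With the replicate number as a block over 9 arrays (replicate block) 1298 genes and 2144 probe sets passed. The probe set with the highest mean gave 201 genes and the mean of all probe sets 188. The GAPDH difference as a covariate gave 87 genes and 135 probe sets, the bacterial difference 81 and 127, and the GAPDH difference with the replicate block 53 and 101. Leaving out both arrays with the largest GAPDH difference, which leaves 1 array with gradient that is assumed to vary like the others, gave 43 and 83. Leaving out 1 array at a time gave 196 to 2039 genes and 347 to 3465 probe sets, and a GAPDH difference of 1.33 to 3.65. Chosen after seeing the data, leaving out both thawed arrays of number 1 gave 80 genes and 153 probe sets, and of number 3 gave 1297 and 2245. An adjusted p under 0.05 left 0 genes. Among the genes named with values, MYCN (0.22), ATP6V1A (0.40), STMN1 (0.085) and MSMO1 (0.13) turned when the brightest probe set was taken, and EIF4G1 with the GAPDH (0.59) or the bacterial (0.58) covariate. The GAPDH difference of 2.74 was the same when taken within numbers (replicate block; two-sided p = 0.25 by exact permutation of signs, the lowest that 3 pairs can give). The 3 conditions hold 3 arrays each, the covariates move with the gradient step, and the cause of these changes was not tested.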

Other observations

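Stress and cell cycle genes were read in the same way. Of 27 immediate early genes, which respond within minutes to handling, none passed the criterion, and their median log2 fold change was 0.20, beside 0.15 over all genes. FOS lay at 4.74, 6.09 and 4.90 with gradient and at 4.78, 4.91 and 4.11 without gradient, and EGR1 at 7.01, 6.87 and 5.77 with gradient and at 7.65, 6.75 and 6.24 without gradient. Both overlapped between the conditions. Of 20 p53 targets and apoptosis genes BCL2L11 (by 1.10) and MCL1 (by 1.32), a pro- and an antiapoptotic member of one family, fell at the probe set taken, and 18 did not pass. These were 10% of the list, beside 4.24% of all genes and 8.41% of those at a mean signal of 6 to 8. BCL2L11 passed at 1 of 14 probe sets, of which 10 were positive (median 0.08), and MCL1 at 1 of 6, of which 3 were positive. None of the 20 genes passed with the probe set of highest mean. CDKN1A, a p53 target that halts the cell cycle, lay at 9.21, 8.86 and 7.82 with gradient and at 9.13, 8.77 and 7.67 without gradient. Its values went with the replicate number and hardly with the gradient step. Of 16 cold and hypoxia genes 4 fell, among them CIRBP, the cold-inducible RNA-binding protein (by 1.54), and 0 passed without replicate 1 with gradient.

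Of 62 cytosolic ribosomal proteins 7 fell (11.3%, median -0.39), and of 27 proteasome subunits 4 (14.8%, median -0.57). Of 41 nuclear subunits of the respiratory chain 4 fell (9.76%, median -0.18), and of 26 genes of mitosis 2 (7.69%, median -0.40). Over all genes 4.24% fell, with 6.29% at a mean signal of 8 to 10 and 4.9% at 12 and over. When 1 array was left out, 3 to 14 ribosomal proteins, 1 to 7 proteasome subunits, 2 to 8 respiratory chain subunits and 1 to 6 genes of mitosis passed, and when the brightest probe set was taken 3, 2, 2 and 0 did. The median over the 167 probe sets of the ribosomal proteins was -0.10. Of 35 chromatin regulators and other very long transcripts 7 fell (median -1.12), with 1 past the criterion without replicate 1 with gradient and 18 with the replicate number as a block. Of 20 genes of the endoplasmic reticulum 3 fell, all protein disulfide isomerases: P4HB, PDIA6 (-1.97) and PDIA4 (-1.52). The 3 mitochondrially encoded genes measured did not pass, and ND1 lay at 13.71, 14.20 and 13.86 with gradient and at 13.76, 13.64 and 13.48 without gradient. Of 67 replication-dependent histone genes, whose transcripts mostly end without a poly(A) tail, H4C12 rose, H2AC25 (by 1.29) and H2BC5 (by 1.13) fell, and 64 did not pass.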
